A study of Rattus norvegicus with 4 samples.

Results

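Chemokines, interleukins and their receptors are the signals by which tissues call in and instruct immune cells. This group of genes was taken from the mRNA table by gene name. The names began with Ccl, Cxcl, Cx3cl, Ccr, Cxcr, Ackr or Il followed by a digit, or were on a short list of related colony-stimulating factors, receptors and adhesion molecules. The rule found 89 of 13114 gene names, 82 by the pattern and 7 by name, and the rule itself uses names only. They comprised 45 ligands, 40 receptors, 2 binding inhibitors and 2 adhesion molecules.

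RNA came from Sertoli cells, which support germ cells inside the seminiferous tubule and which the study enriched from testes of young Sprague-Dawley rats and passaged in serum-containing medium. There were 2 control libraries from cells without 4-nonylphenol (4-NP), an alkylphenol with estrogen-like activity, and 2 treated libraries from cells exposed to 4-NP for 24 h. Ribosomal RNA was removed from total RNA before sequencing, and between 96600000 and 118800000 reads were mapped per library (rounded). Since the labels do not mention separate cultures, the p-values below reflect only how these samples spread, which may be technical. Among the Sertoli markers, Sox9, Gata4 and Fshr stayed under 1 FPKM (fragments scaled to transcript length and library depth) in every library. Clu stood at 70.5 and 61.8 FPKM in controls against 16.0 and 13.3 FPKM in treated cells. Inha stood at 17.0 and 15.7 FPKM against 1.65 and 1.78 FPKM. The 6 Sertoli markers that could be tested were all lower, beside 23.1% of all tested genes. Testing required a mean of 1 FPKM over all libraries. Wt1, Inhbb, Cldn11 and Kitlg reached it through the controls only, so their direction was fixed and nothing is read from this number. The summed level of 9 smooth muscle markers went from 7904 and 7983 FPKM in the controls to 663 and 652 FPKM after treatment. In bulk RNA, fewer cells of a type and less RNA per cell cannot be told apart.

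Chemokines are small secreted proteins that bind G protein-coupled receptors and guide leukocytes. Those with the amino acids Glu-Leu-Arg before a CXC motif mainly attract neutrophils, and CC chemokines mainly attract monocytes and other mononuclear cells. Many interleukins, though not all, act through single-pass receptors that pass their signal to JAK kinases and STAT factors, or to MYD88 and IRAK proteins in the IL-1 family. In the testis, IL-1 and IL-6 produced by Sertoli cells are known as local regulators of germ cell development, and the organ as a whole is kept in an immune-restrained state.

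The comparison asked which of these genes differed between treated and control cells. Of the 18 ligands tested 10 were higher after 4-NP and 3 lower, and of the 13 receptors tested 3 were higher and 5 lower. Cxcl1, Il6 and Il23a rose 20.9-, 29.8- and 119.7-fold in mean FPKM. Il1rl1, the receptor of IL-33, and Cxcr4, the receptor of CXCL12, fell, with control means 66.4 and 25.5 times the treated means. The lower mean in these ratios was 0.153 FPKM for Il23a, 0.314 FPKM for Il1rl1 and 0.362 FPKM for Cxcr4. Precision under 1 FPKM is not known, so the ratios of Il23a, Il1rl1 and Cxcr4 are rough. The test was limma on log2(FPKM + 1), applied to the 8012 genes whose average over the 4 libraries reached 1 FPKM, with Benjamini-Hochberg adjustment over all of them. Of the 89 members 33 reached this mean, and 14 of these were higher and 8 lower (adjusted p under 0.05), while 11 did not pass. Across all tested genes 24.7% were higher and 23.1% lower (47.8% in either direction), against 42.4% and 24.2% of the tested members. The filter bears on this count, since 9 of the 33 reached it through the treated libraries only and 8 through the controls only. Among the 16 members at 1 FPKM or more in both groups, 8 were higher and 1 lower, beside 26.1% and 19.2% of all such genes. By role, 7 of the 18 tested ligands reached the filter through the treated libraries only and 3 through the controls only. For the 13 tested receptors these numbers were 1 and 5. At 1 FPKM or more in both groups, 5 of 8 ligands were higher and 0 lower. Of 7 such receptors 2 were higher and 1 lower. The counts by role thus rest partly on the filter, and no contrast between ligands and receptors is read from them. The median log2 change was 0.41 over the tested members and 0.05 over all tested genes.

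**Figure D1:**
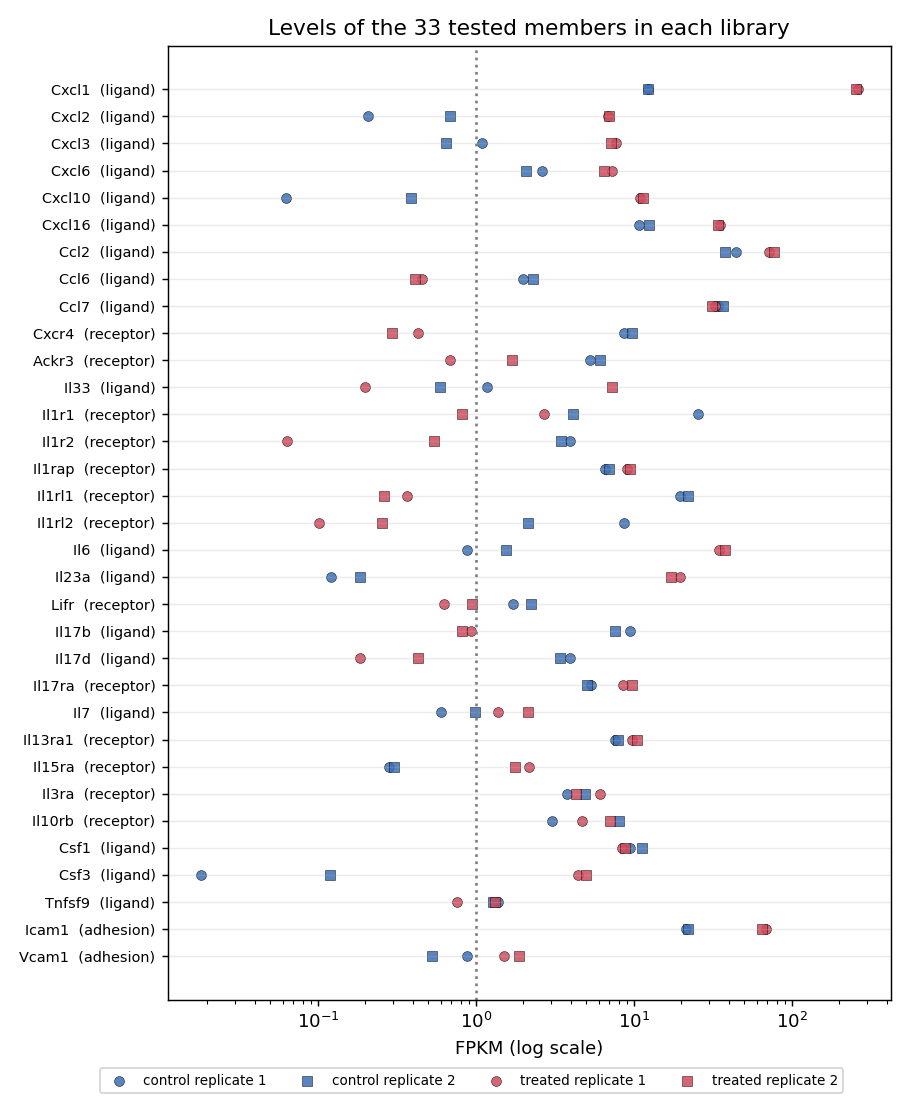
Level of each of the 33 tested members in each library, in FPKM on a log axis, with circles for replicate 1 and squares for replicate 2 of control (blue) and treated (red) cells, and a dotted line at 1 FPKM. Cxcl1 lies near 12 FPKM in both controls and above 250 FPKM in both treated libraries, and Il33 has its lowest and its highest value in the 2 treated libraries.

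The 4 Glu-Leu-Arg chemokines of the table, ligands of neutrophil receptors, all rose, and 2 of them reached the filter through the treated libraries only. Cxcl1 stood at 12.3 and 12.3 FPKM without 4-NP and reached 261 and 253 FPKM with it. Its log2 change was 4.28 ± 0.06 (SE, limma, adjusted p = 0.000380), and it had the highest level of these genes after treatment. Cxcl2 went from 0.209 and 0.684 FPKM to 6.85 and 6.93 FPKM, a log2 change of 2.47 ± 0.22 (adjusted p = 0.00382). Cxcl3 went from 1.10 and 0.643 FPKM to 7.76 and 7.14 FPKM, a log2 change of 2.18 ± 0.19 (adjusted p = 0.00356). Cxcl2 and Cxcl3 thus started below or near 1 FPKM and ended between 6.85 and 7.76 FPKM. Cxcl6 went from 2.64 and 2.08 FPKM to 7.22 and 6.50 FPKM, a log2 change of 1.23 ± 0.16 (adjusted p = 0.00812), which did not pass without treated replicate 1 (adjusted p = 0.0545). Treated and control libraries did not overlap for any of the 4, as was the case for 76.4% of all tested genes and for 29 of the 33 tested members (87.9%). In the deposited coordinates these genes neighbour each other on chromosome 14 from 18731378 to 18862407, a span of 131.0 kb. They are close relatives, so reads shared between near-identical stretches make their single values uncertain.

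Promoter sequences are shown for the 3 members that hold the letters of an NF-kB site (GGGA, any base, TTTCC) within 250 bases before to 50 bases after their annotated start, since all 3 rose. NF-kB is a family of transcription factors known to act at inflammatory promoters. The sequences are from RefSeq (build GRCr8, which is not known to be the build of the deposited table), read 5′ to 3′ on the strand of the gene, with the matched letters in capitals.
Cxcl1, chr14:17479386-17479415, minus strand: cctgtgctccGGGAATTTCCctggcctgga
Cxcl6, chr14:17596486-17596515, minus strand: tccaaggcccGGGAATTTCCccagcatctt
Il6, chr4:5894624-5894653, minus strand: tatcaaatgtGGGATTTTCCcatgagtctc

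The matched letters begin 84 bases before the start of Cxcl1, 88 before that of Cxcl6 and 68 before that of Il6. Searched on both strands, they occurred in 3 of the 11 promoters of members that rose, in 0 of the 7 of members that fell and in 121 of all 33469 promoters (0.362%). The narrower form with C as the free base, which is part of the first, occurred in 0 of the 70 member promoters and in 0.111% of all promoters. The AP-1 letters TGANTCA, which read the same on both strands, occurred in 2 of the 11 promoters of members that rose, those of Cxcl10 and Il15ra, in 9 of all 70 member promoters and in 7.33% of all promoters. The table held promoters for 67 of the 89 members. Cxcl1 and Cxcl6 are close relatives and share the same matched letters, so they are not separate cases. The 3 promoters were also shown because of the rise of their genes, and nothing is read from these shares. Binding was not measured here, and a match is only a description of the sequence.

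Other CXC chemokines moved in both directions. Cxcl10, a ligand of CXCR3 on activated T cells that interferons are known to induce, went from 0.0627 and 0.388 FPKM to 10.9 and 11.4 FPKM, a log2 change of 3.32 ± 0.20 (adjusted p = 0.00185). Its neighbours on chromosome 14, Cxcl9 and Cxcl11, which share that receptor, stayed at or below 0.0917 FPKM in every library. The rise was therefore seen for 1 of the 3 CXCR3 ligands. Cxcl10 had reached the filter through the treated libraries only, which fixed its direction. Cxcl16, a membrane-bound chemokine that also takes up oxidized lipids, went from 10.8 and 12.5 FPKM to 35.0 and 34.1 FPKM, a log2 change of 1.49 ± 0.10 (adjusted p = 0.00212). Cxcl12, the stromal ligand of CXCR4, was at 1.24 and 1.40 FPKM in controls against 0.106 and 0.110 FPKM in treated cells, below the filter. The 6 members of this family under the filter also included Cxcl13, Cxcl14 and Cx3cl1, none above 1.40 FPKM in any library.

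The CC chemokines, of which 3 of 14 were tested, were divided. Ccl6 among the tested reached the filter through the controls only, which fixed its direction. Ccl2, the main attractant of monocytes, was at 44.5 and 37.6 FPKM in controls against 71.5 and 76.8 FPKM in treated cells. Its log2 change was 0.84 ± 0.11 (adjusted p = 0.00815) and did not pass without treated replicate 2 (adjusted p = 0.0583). Ccl7, a monocyte attractant encoded next to Ccl2, was at 34.2 and 36.5 FPKM in controls against 32.5 and 31.3 FPKM in treated cells, with a log2 change of -0.14 ± 0.07 that did not pass (adjusted p = 0.192). Its libraries did not overlap either, but the difference was small beside that of Ccl2. Ccl12, in the same stretch of chromosome 10 (69412017 to 69478462), had 0.935 and 1.15 FPKM in the controls but was listed at 0 after treatment, below the filter. Ccl6, a CC chemokine of rodents, fell from 1.97 and 2.29 FPKM to 0.454 and 0.411 FPKM, a log2 change of -1.13 ± 0.16 (adjusted p = 0.0102). It did not pass without treated replicate 1 (adjusted p = 0.0503) or without treated replicate 2 (adjusted p = 0.0548). The other 10 CC chemokines, among them Ccl3, Ccl4, Ccl5 and Ccl20, were under the filter, with a highest value of 1.05 FPKM for Ccl20.

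**Figure D2:**
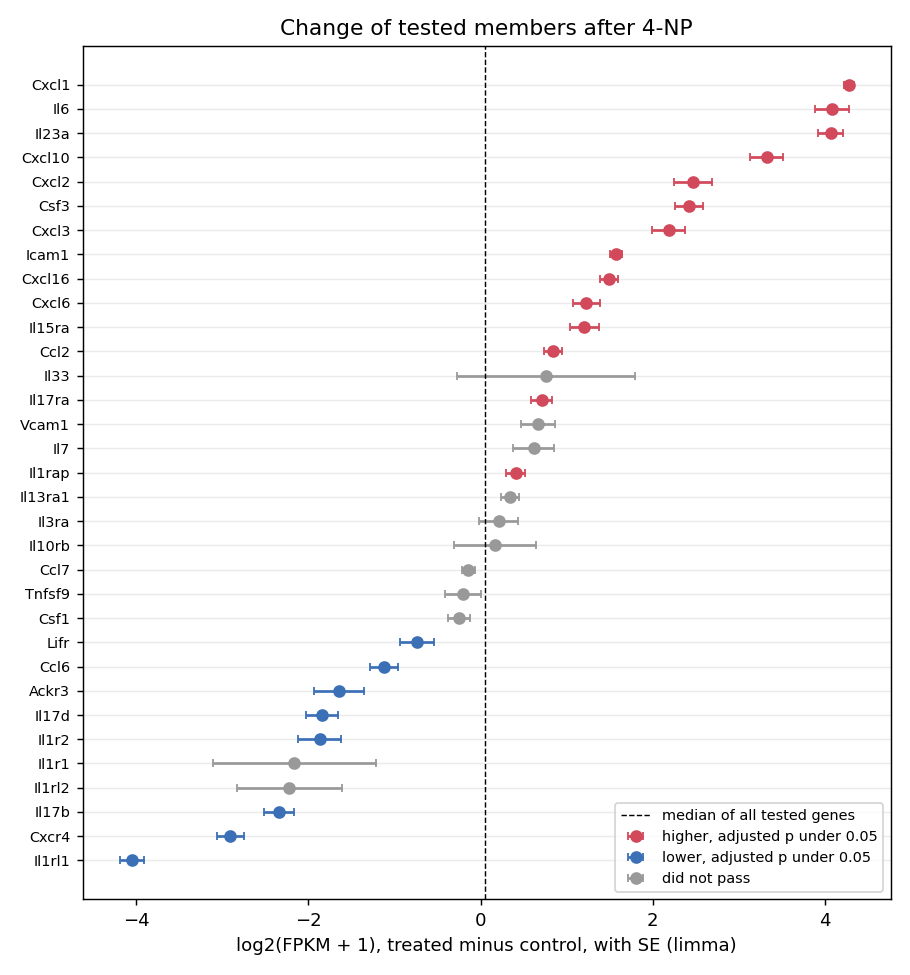
Log2 change of each tested member, treated minus control on the log2(FPKM + 1) scale, with its SE from limma, and a dashed line at the median of all 8012 tested genes (0.05). Cxcl1, Il6 and Il23a have changes above 4 and Il1rl1 lies at -4.05, while the wide bars of Il33 and Il1r1 mark genes whose replicates disagreed.

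Among interleukins of the IL-6 and IL-12 families, 2 of 4 were tested and both rose from low levels, Il23a having reached the filter through the treated libraries only. Il6, a cytokine of the acute phase response that signals through gp130, went from 0.881 and 1.54 FPKM to 34.4 and 37.8 FPKM. Its log2 change was 4.08 ± 0.19 (adjusted p = 0.00131). Il23a, the p19 subunit that pairs with IL-12B to form IL-23, went from 0.122 and 0.185 FPKM to 19.6 and 17.1 FPKM, a log2 change of 4.07 ± 0.15 (adjusted p = 0.000896). Its partner Il12b was not analysed here. Il12a, the p35 subunit of IL-12, was at 0.855 and 0.625 FPKM in controls against 0.0923 and 0 FPKM in treated cells. Il11, another gp130 cytokine, lay between 0.436 and 0.674 FPKM in all libraries, so that the large values were those of Il6 and Il23a.

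The receptors of these cytokines were low throughout. Lifr reached the filter through the controls only, which fixed its direction. Il6r, the IL-6 binding subunit, was listed at 0 in 3 libraries and at 0.00676 FPKM in treated replicate 2. Il6st, which encodes the gp130 subunit that nearly all cells carry, was at 0.0698 and 0.0490 FPKM in controls against 0.0504 and 0.0794 FPKM in treated cells. Jak1, a kinase of similarly broad use, did not exceed 0.0187 FPKM, so a value near 0 in this table need not mean that a gene was silent. Lifr, a receptor subunit of leukemia inhibitory factor, fell from 1.73 and 2.23 FPKM to 0.628 and 0.943 FPKM, a log2 change of -0.74 ± 0.20 (adjusted p = 0.0473), a call lost on omission of any single library (adjusted p between 0.0697 and 0.152). It was also lost with the replicate number as a block (adjusted p = 0.0667), with no filter (adjusted p = 0.0642) and with a pseudocount of 0.1 (adjusted p = 0.0603).

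Colony-stimulating factors differed from each other, and Csf3 reached the filter through the treated libraries only, which fixed its direction. Csf3, which drives neutrophil production, went from 0.0182 and 0.119 FPKM to 4.46 and 4.98 FPKM, a log2 change of 2.42 ± 0.16 (adjusted p = 0.00220). Csf1, the growth factor of macrophages, was at 9.50 and 11.3 FPKM in controls and 8.38 and 8.80 FPKM in treated cells, and its log2 change of -0.25 ± 0.13 did not pass (adjusted p = 0.196). Il34, the other ligand of the CSF1 receptor, had 1.04 and 0.701 FPKM in the controls but was listed at 0 after treatment, below the filter. Csf1r itself did not exceed 0.318 FPKM.

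In the IL-1 receptor family, 6 genes neighbour each other on chromosome 9 from 46840992 to 47258503, of which 4 were tested, 2 fell and 2 did not pass. Il1rl1, Il1r2 and Il1rl2 reached the filter through the controls only, so their treated means lay below their control means by the filter alone. Nothing is read from the number that fell. Il1rl1 went from 19.6 and 22.0 FPKM to 0.366 and 0.262 FPKM, a log2 change of -4.05 ± 0.14 (adjusted p = 0.000870), the lowest among the tested members. Il1r2, a decoy that binds IL-1 without signalling, fell from 3.92 and 3.43 FPKM to 0.0641 and 0.540 FPKM, a log2 change of -1.87 ± 0.25 (adjusted p = 0.00874). Both were lower in each treated library than in either control. Il1rl2, the receptor of IL-36, was at 8.62 and 2.13 FPKM in controls against 0.102 and 0.253 FPKM in treated cells, a log2 change of -2.22 ± 0.61 that did not pass (adjusted p = 0.0511). It passed without control replicate 1 (adjusted p = 0.0267) and without control replicate 2 (adjusted p = 0.0179), but each of these fits leaves 1 control library, whose spread is then taken from the treated group, and so removes the disagreement between the controls. Il1r1, the signalling receptor of IL-1, was at 25.4 and 4.14 FPKM in controls against 2.71 and 0.818 FPKM in treated cells, and its log2 change of -2.17 ± 0.95 did not pass (adjusted p = 0.142). Control replicate 1 decided its size, with a log2 change of -0.98 without that library (adjusted p = 0.290) and of -3.35 without control replicate 2 (adjusted p = 0.0470), under the same limit. Il18r1, an IL-18 receptor subunit, was at 0.329 and 0.492 FPKM in controls against 0.0207 and 0.0752 FPKM in treated cells, while its neighbour and partner Il18rap was at 0.0758 and 0.0745 FPKM in controls and 0.177 and 0.141 FPKM in treated cells. Both lay below the filter, and Il18rap was the only one of the 6 with higher values after treatment.

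**Figure D3:**
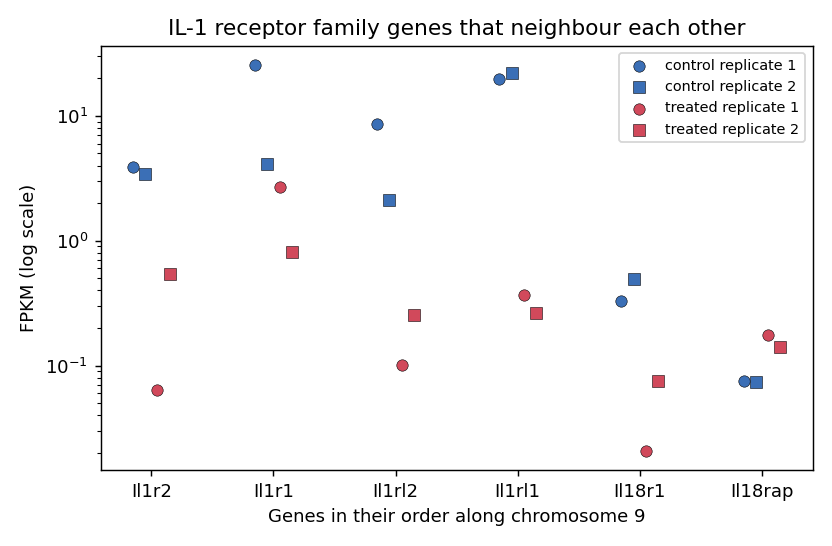
Level of the 6 neighbouring IL-1 receptor family genes in each library, in FPKM on a log axis, in their order along chromosome 9, with circles for replicate 1 and squares for replicate 2 of control (blue) and treated (red) cells. The treated values lie below both controls for the first 5 genes and above them for Il18rap, and control replicate 1 exceeds control replicate 2 for Il1r1 and Il1rl2.

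Single transcripts behind these sums were unequal. Of the 2 Il1rl1 transcripts, the one with 8 exons and 2585 bases (ENSRNOT00000020144) was at 19.2 and 21.1 FPKM in controls against 0.343 and 0.262 FPKM in treated cells. The transcript with 11 exons and 2065 bases (ENSRNOT00000020108) was at 0.485 and 0.857 FPKM in controls against 0.0227 and 0 FPKM in treated cells. The gene is known to give a membrane-bound and a secreted receptor, and the table does not say which transcript is which. The high Il1r1 value of control replicate 1 came from its 11-exon transcript (ENSRNOT00000082146), at 23.4 FPKM there and 1.62 FPKM in control replicate 2. The 12-exon transcript (ENSRNOT00000019673) was at 2.01 and 2.52 FPKM in controls against 2.44 and 0.778 FPKM in treated cells, so that its groups overlapped.

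Il1rap, the coreceptor shared by IL-1, IL-33 and IL-36 receptors, lies on chromosome 11 and rose slightly. It went from 6.58 and 6.97 FPKM to 9.11 and 9.49 FPKM, a log2 change of 0.41 ± 0.11 (adjusted p = 0.0445), a call lost on omission of any single library (adjusted p between 0.117 and 0.158), with no filter (adjusted p = 0.0535), after scaling to equal totals (adjusted p = 0.0630) and with the replicate number as a block (adjusted p = 0.0775). The ligands of the family did not pass or were below the filter. Il33, an alarmin kept in the nucleus, was at 1.17 and 0.591 FPKM in controls against 0.200 and 7.24 FPKM in treated cells. Its direction rested on treated replicate 2, with a log2 change of -0.63 without that library (adjusted p = 0.230) and of 2.15 without treated replicate 1 (adjusted p = 0.0399), where the spread came from the controls alone. Il1a and Il1b, the classical IL-1 ligands, did not exceed 0.452 FPKM, and Il1rn, their natural antagonist, was at 0.376 and 0.406 FPKM in controls against 0 and 0.150 FPKM in treated cells. Il18, an inducer of interferon gamma, was at 0.353 and 0.188 FPKM in controls against 0.911 and 0.735 FPKM in treated cells.

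Of the chemokine receptors, 2 of 8 were tested and both fell, beside 23.1% of all tested genes. Cxcr4 reached the filter through the controls only, which fixed its direction, so nothing is read from their number. Cxcr4 went from 8.67 and 9.79 FPKM to 0.428 and 0.296 FPKM, a log2 change of -2.91 ± 0.16 (adjusted p = 0.00159). Ackr3, an atypical receptor that removes CXCL12, went from 5.25 and 6.09 FPKM to 0.686 and 1.69 FPKM, a log2 change of -1.64 ± 0.29 (adjusted p = 0.0167). Ackr3 did not pass without control replicate 1 (adjusted p = 0.0710) or control replicate 2 (adjusted p = 0.0843). For both receptors each treated library lay below either control, in a table where 76.4% of all tested genes did not overlap, and Ackr3 stayed at 1 FPKM or more in mean after treatment while Cxcr4 did not. The other 6 receptors (Ccr1, Ccr7, Ccr9, Ccr10, Cxcr5 and Ackr4) did not exceed 0.375 FPKM, and the receptors of the Glu-Leu-Arg chemokines, Cxcr1 and Cxcr2, were not analysed here.

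In the IL-17 family, 2 of 4 ligands and 1 of 5 receptors were tested. Both ligands reached the filter through the controls only, so their treated means lay below their control means by the filter alone, and nothing is read from their number. Il17b went from 9.52 and 7.55 FPKM to 0.936 and 0.818 FPKM, a log2 change of -2.34 ± 0.17 (adjusted p = 0.00266). Il17d went from 3.91 and 3.42 FPKM to 0.184 and 0.428 FPKM, a log2 change of -1.84 ± 0.19 (adjusted p = 0.00464). Both are less studied relatives of IL-17A and were low in both treated libraries. Il17ra, the shared receptor subunit, rose from 5.37 and 5.04 FPKM to 8.58 and 9.75 FPKM, a log2 change of 0.71 ± 0.12 (adjusted p = 0.0168), again a call lost on omission of any single library (adjusted p between 0.0547 and 0.0806). Il17rb, the receptor of IL-17B, was at 0.859 and 0.567 FPKM in controls against 0.133 and 0.0329 FPKM in treated cells.

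Of the other interleukin receptors 4 of 12 were tested, and Il15ra reached the filter through the treated libraries only, which fixed its direction. Il15ra, which presents IL-15 to neighbouring cells, rose from 0.281 and 0.301 FPKM to 2.18 and 1.78 FPKM, a log2 change of 1.20 ± 0.17 (adjusted p = 0.00969). Il13ra1, a receptor subunit for IL-4 and IL-13, was at 7.58 and 7.99 FPKM in controls and 9.72 and 10.5 FPKM in treated cells and did not pass (adjusted p = 0.0698), though it did after scaling to equal medians (adjusted p = 0.0469). Il3ra, the IL-3 receptor alpha chain, and Il10rb, a subunit shared by several IL-10 family receptors, did not pass, with libraries that overlapped between 3.03 and 8.02 FPKM. Il7, a growth factor of lymphocytes, was at 0.602 and 0.986 FPKM in controls and 1.38 and 2.14 FPKM in treated cells and did not pass (adjusted p = 0.109). Tnfsf9, a costimulatory ligand, did not pass either (adjusted p = 0.459). Of the adhesion molecules that hold leukocytes, Icam1 rose from 21.4 and 22.0 FPKM to 68.2 and 64.7 FPKM, a log2 change of 1.57 ± 0.07 (adjusted p = 0.00114). Vcam1 was at 0.876 and 0.527 FPKM in controls and 1.52 and 1.87 FPKM in treated cells and did not pass (adjusted p = 0.0622), though it did in limma without a trend (adjusted p = 0.0410).

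Summed over all 89 members, the level was 275 and 253 FPKM in controls and 625 and 630.4 FPKM in treated cells. Cxcl1 made up 4.47% and 4.85% of this sum in controls and 41.7% and 40.1% in treated cells. Ccl2 had the highest level of the members in both controls and ranked behind Cxcl1 in both treated libraries. Ligands summed to 144 and 141 FPKM in controls and to 508 and 512 FPKM in treated cells, while receptors summed to 108 and 88.5 FPKM and to 47.9 and 51.6 FPKM. Without Cxcl1, ligands summed to 132 and 129 FPKM in controls and to 247 and 259 FPKM in treated cells, so their summed level was higher after treatment with or without this gene. Without Il1r1, receptors summed to 82.2 and 84.4 FPKM in controls and to 45.2 and 50.8 FPKM in treated cells. These sums are descriptions and were not tested.

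**Figure D4:**
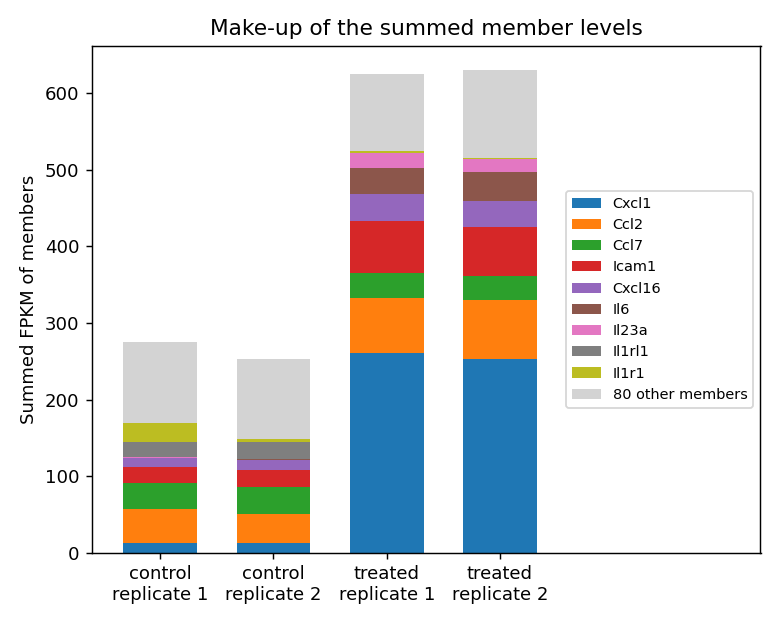
Summed FPKM of the 89 members in each library, stacked by gene for 9 members and with the 80 other members in grey. Cxcl1 is a thin base in both controls and about 40% of the bar in both treated libraries.

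The 56 members under the filter were low, and 49 of them stayed below 1 FPKM in every library. The other 7 reached 1 FPKM in at least 1 library, the highest being Il11ra1, the IL-11 receptor, at 2.57 FPKM in control replicate 1 against 0.227 FPKM in control replicate 2. When all listed genes were tested without the filter, 14 of the 56 were lower and 2 higher, beside 13.7% and 4.25% of the 5102 genes under the filter. The 2 higher members were Il18 and Il22ra1, a subunit of the IL-22 receptor. The lower ones included Cxcl12, Ccl12, Il34, Cxcl14, Il12a, Il17rb and Il2rg, the common gamma chain, with log2 changes between -1.07 and -0.19 over the 14. Reads behind single values this low are not given, and the test assumed equal precision for all of them apart from a trend with the mean.

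**Figure D5:**
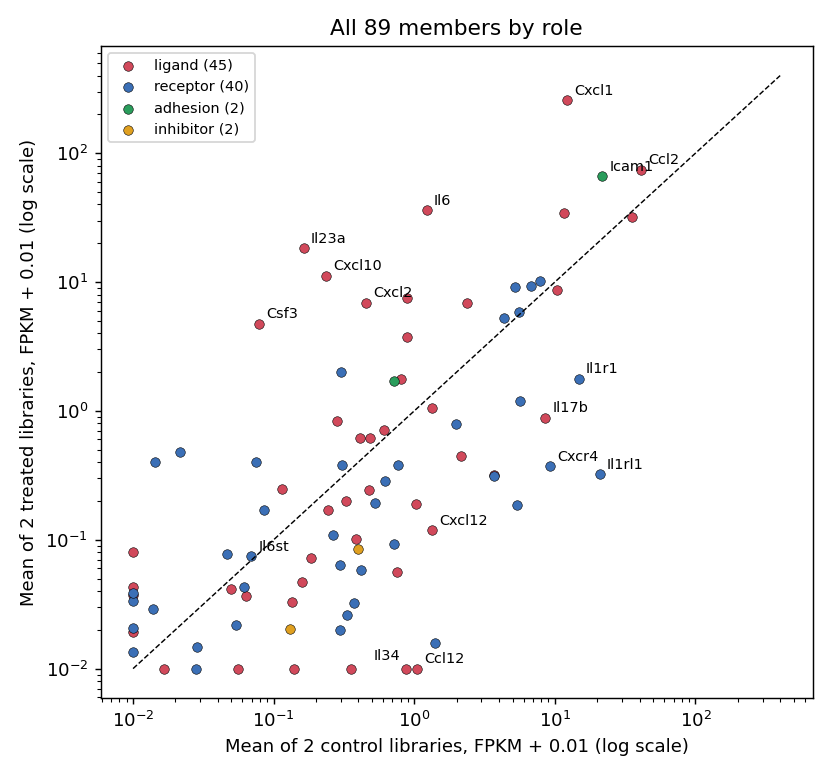
Mean level of all 89 members in the 2 treated libraries against the 2 control libraries, in FPKM with 0.01 added, on log axes, coloured by role, with a dashed line of equal levels. Cxcl1, Il6, Il23a, Cxcl10 and Csf3 lie far above the line, Il1rl1, Cxcr4 and Cxcl12 lie below it, and Il6st lies close to it at a low level.

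Marker lists of other cell types also differed between the groups. Of 16 macrophage and monocyte markers 15 were in the table, with a summed level of 14.1 and 14.5 FPKM in controls and of 2.15 and 2.03 FPKM after treatment. Of these Cd14 and Lyz2 reached the filter, both through the controls only, which fixed the direction of their fall. Ptprc, the pan-leukocyte marker, did not exceed 0.0659 FPKM in any library. Cd68, a lysosomal protein of macrophages that lay under the filter, went the other way, from 0.0888 and 0.301 FPKM to 0.552 and 0.812 FPKM, and the libraries of Cd74, which takes part in antigen presentation, overlapped. Of 14 lymphocyte, mast cell and neutrophil markers 5 were in the table, none reached the filter, and these summed to at most 0.743 FPKM. The endothelial markers, 7 of 8 in the table, summed to 13.5 and 12.3 FPKM in controls and to 1.54 and 1.47 FPKM in treated cells, and the germ cell markers, 7 of 8 in the table, to 22.3 and 22.3 FPKM and to 4.35 and 5.51 FPKM. The 7 fibroblast and stromal markers summed to 3252 and 3254 FPKM in controls and to 702 and 750.3 FPKM in treated cells, with 4 lower, 2 not passed and 1 higher, Dcn, a matrix proteoglycan. Among the lower ones Thy1 reached the filter through the controls only. The Leydig cell markers, 5 of 8 in the table, had a higher sum after treatment. It was 423 and 420 FPKM in controls and 829 and 803 FPKM in treated cells, with 1 of 3 tested higher and 2 lower. The higher one was Star, from 310 and 305 FPKM to 813 and 788 FPKM. Akr1c14 fell from 83.0 and 84.3 FPKM to 2.74 and 3.71 FPKM, and Hsd11b1 from 28.7 and 29.7 FPKM to 12.4 and 11.2 FPKM. The part of other cell types in the levels of the members was not tested.

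Genes that carry the signals onward were drawn from a list of 47, of which 42 were in the table and 28 were tested. Of these 6 were higher and 7 lower, against 24.7% and 23.1% of all tested genes. With any single library omitted, 2 to 3 were higher and 4 to 5 lower. Stat3, the main transcription factor downstream of gp130, fell from 30.6 and 30.7 FPKM to 16.7 and 22.4 FPKM (adjusted p = 0.0423). Stat2, a transcription factor of interferon signalling, rose from 11.0 and 11.0 FPKM to 20.7 and 21.8 FPKM (adjusted p = 0.00398). These moved in opposite directions, and both were singled out after their values were seen. Socs3, the feedback inhibitor that IL-6 signalling is known to induce, did not exceed 0.0956 FPKM, and Socs1 lay between 0.287 and 0.542 FPKM. Socs5, a relative of these inhibitors, fell from 31.9 and 35.8 FPKM to 14.5 and 14.9 FPKM (adjusted p = 0.00303), while Socs4 and Socs6 did not pass. As with Il6st and Jak1, values this near 0 were not read further.

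On the IL-1 receptor side, Irak3, an inhibitor of MYD88 signalling, rose (adjusted p = 0.0147). It went from 0.402 and 0.873 FPKM in controls to 3.59 and 2.87 FPKM in treated cells. The filter was reached through the treated libraries only, which fixed the direction. Irak3 did not pass without treated replicate 1 (adjusted p = 0.0774) or treated replicate 2 (adjusted p = 0.0608), or with the replicate number as a block (adjusted p = 0.0510). Among regulators of chemokine receptors, Rgs2, which shortens G protein signals, fell from 90.4 and 99.6 FPKM to 9.20 and 10.3 FPKM, a log2 change of -3.16 ± 0.10 (adjusted p = 0.000838). The receptor kinases were divided, and Grk6 reached the filter through the controls only, which fixed its direction. Grk2, which desensitizes many G protein-coupled receptors, rose from 10.7 and 11.8 FPKM to 38.4 and 36.5 FPKM (adjusted p = 0.00159). Grk5 fell from 6.69 and 5.28 FPKM to 1.76 and 1.62 FPKM (adjusted p = 0.00745) and did not pass without treated replicate 2 (adjusted p = 0.0501). Grk6 fell from 2.59 and 2.03 FPKM to 0.536 and 0.0192 FPKM (adjusted p = 0.0227) and did not pass without control replicate 1 (adjusted p = 0.0903), control replicate 2 (adjusted p = 0.0692) or treated replicate 2 (adjusted p = 0.0652), or with a pseudocount of 0.1 (adjusted p = 0.0708).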

How the data were processed

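Each library got its group and number from its title, and the columns named NP were matched to the treated samples. The authors deposited mRNA and lncRNA levels as FPKM, per transcript. For circRNAs the authors deposited read counts and a scaled signal (junction reads scaled to mapped reads), whose ratio gave the mapped reads per library. No lncRNA entry was assigned to a member. Alignment with HISAT2 and the use of DESeq2 are named in the submitters' processing notes, while the sources used here give no versions, genome build or assembler. Columns of the authors' own ratios, p-values and q-values were not used.

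Of 17290 mRNA rows, 1545 that repeated a transcript name were dropped, and the rest were added up by gene name. In R 4.3.3, limma 3.58.1 with a mean-variance trend and group as its only term was run on log2(FPKM + 1) for genes averaging 1 FPKM or more, two-sided, with Benjamini-Hochberg adjustment at 0.05. Changes on this scale understate those of low genes, and fold values are ratios of mean FPKM. The edgeR test named in the study's methods needs counts and was not run on FPKM. Glu-Leu-Arg chemokines were grouped by textbook knowledge, since no protein sequences were used here. Every member reaching the filter was named, with fuller values for those that passed or changed by more than 1 on the log2 scale. Some results of the signalling list are not reported here. The members and lists were chosen with earlier results of these data known. Alternatives were the pseudocount, filter, scaling, trend, threshold, single transcripts, a replicate block and leaving out each library. An exact permutation test of 2 against 2 cannot reach 0.05, so none was used. Python 3.11.15 with pandas 2.3.3, numpy 2.4.6 and matplotlib 3.10.9 was used for other steps.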

Additional observations from a re-analysis of the deposited data

How the results depend on the processing

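Single transcripts were only counted as totals, with 14 members higher and 7 lower, and are left out of the gene-by-gene statements here. Of the 22 members that passed, 15 kept their call in each other alternative in which they were fitted, and the direction of none turned. The 7 others (Ackr3, Ccl2, Ccl6, Cxcl6, Il17ra, Il1rap and Lifr) missed the threshold in at least 1 of them. Of the 11 that did not pass, 2 turned direction when a library was left out, and 5 passed in at least 1 alternative (Il1r1, Il1rl2, Il33, Il13ra1 and Vcam1), the first and Il33 only with 1 library left out. The log2 change of Il10rb was 0.17 and ranged from -0.42 (without control replicate 1) to 0.75, with -0.09 without treated replicate 2. That of Il33 ranged from -0.63 (without treated replicate 2) to 2.15. Of the signalling genes, Socs4 ranged from -0.13 to 0.045 (without treated replicate 1). With a mean of at least 5 FPKM, which leaves fewer genes tested, 9 members were higher and 1 lower, 3 signalling genes were higher, and 1158 of all genes were lower. With no filter, 21 members were lower. With only members at 1 FPKM or more in both groups, a choice made after seeing the data, 8 were higher and 1 lower. With an unadjusted p under 0.05 and a log2 change beyond 1, 914 of all genes were higher and 1218 lower, and 2 signalling genes were higher. Leaving out 1 library at a time gave 11 to 12 members higher and 6 to 8 lower, 1134 to 1518 of all genes higher and 1270 to 1356 lower, and 2 to 3 signalling genes higher and 4 to 5 lower. Replicate numbers did not pair the libraries (correlation of same-numbered deviations -0.01 over genes), and with the replicate number as a block 13 members were higher and 7 lower. Among the genes named, the block ended the calls of Lifr, Il1rap and Irak3. Reads per gene were not given, so the precision of values under 1 FPKM is not known.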
